A study of Drosophila melanogaster with 46 samples.

Results

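The ejaculatory bulb protein genes of Drosophila melanogaster were followed across 11 RNAs from males, females, dissected gonads, gonadectomized carcasses and sex-determination or germline mutants. The members were the genes whose symbol in the array's gene table is Ebp or begins with EbpI. There were 3 of them, Ebp, EbpII and EbpIII, of 10850 genes named on the array. Each was spotted as 1 element in duplicate, so the members took 6 of 31464 spots. No measured value entered this choice. In the RefSeq gene order Ebp and EbpII lie side by side on chromosome arm 2R, with 0 genes between them, whereas 214 genes lie between Ebp and EbpIII on the same arm.

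The study hybridised 46 spotted 2-colour arrays, 44 of which set a pair of different RNAs against each other in 15 comparisons, 7 with 4 arrays and 8 with 2. The remaining 2 arrays carried RNA of mixed sexes in both channels. All flies were adults of 3 to 5 days at 25 C. Whole females, whole males, ovaries, testes and the carcasses left after removal of the gonads came from the strain y[1]w[67c], which some label fields of the whole-fly arrays spell y[1]w[1]. XX tra2 flies were w[67c]/w[67c];tra2[B]/TRIX, XY tra2 flies were w[67c]/BsY;tra2[B]/TRIX, XX dsx flies were +/+;dsx[M+R45]/dsx[swe], and tudor males and tudor females were tud[1] bw[1]sp[1]. Strain background and mutation therefore change together in every mutant comparison with y[1]w[67c] flies and cannot be told apart.

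The ejaculatory bulb is a muscular sac at the end of the male ejaculatory duct. Its secretions are transferred at mating, and its proteins form part of the mating plug that sets in the female tract. Ebp encodes the bulb protein PEB-me, a main component of the plug, and EbpII encodes a second bulb protein of the plug. EbpIII shares the name but is a member of the chemosensory protein family, small soluble proteins found in many insect tissues. The gene tra2 directs the female splicing of dsx, whose male and female proteins set the sex of somatic tissues. Daughters and sons of tud mothers lack germ cells, and the labels call the tudor flies used here germline-less.

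The deposited values were log ratios of the 2 channels, taken here as log2 because the base was not given in the sources used here. A natural log is not excluded. Positive values below mean more of the first-named RNA. The orientation, channel 1 over channel 2, was likely and not stated: with it on 4 of 4 arrays of whole females against whole males, Yp1, Yp2 and Yp3, which encode yolk proteins, lay above 0, and the sperm genes betaTub85D, Mst87F and dj below 0. A ratio was tested with limma over all elements and called at an adjusted p under 0.05. Between 7994 and 14881 elements were measured per array, and the number of arrays limits the precision. On arrays 7b and 8b of the ovary and female carcass comparison 1 subarray ran against the other arrays and was left out. Neither Ebp nor EbpII was measured there, and the EbpIII spots lie on the other subarray.

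In whole flies all 3 members were lower in females than in males, and EbpII showed the largest difference of the 3. EbpII, the second bulb protein of the plug, stood at -3.50, -3.10, -3.24 and -2.40 on the 4 arrays of whole females against whole males. Ebp, the plug protein PEB-me, stood at -3.07, -2.47, -2.12 and -1.10. EbpIII, the chemosensory family member, stood at -0.87, -1.30, -0.90 and -1.75. All 12 values were below 0, and the EbpII values did not overlap those of EbpIII. The fitted log2 ratio was -3.06 ± 0.18 (SE) for EbpII, an 8.35-fold difference with limma's adjusted p = 5.8e-15. For Ebp it was -2.19 ± 0.19, which is 4.56-fold with limma's adjusted p = 5.7e-11, and for EbpIII -1.20 ± 0.12, which is 2.30-fold with limma's adjusted p = 3.7e-10. All 3 were called lower in females, where 27.8% of the 12987 elements tested were. Counted from the lowest ratio, EbpII was number 28 of those elements, Ebp number 179 and EbpIII number 711. With Obp56g at -2.88 and Gld at -1.25, all 5 of the duct and bulb genes tested were called lower in females (median -2.19), as were 14 of 14 accessory gland genes (median -1.97) and 10 of 10 spermatogenesis genes (median -2.95). Muscle genes were also called lower in females, 4 of 5 (median -0.69), and photoreceptor genes, 3 of 3 (median -0.66). In bulk RNA fewer cells of a type and less RNA per cell cannot be told apart, here and in every comparison below.

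With the gonads removed, Ebp and EbpII remained lower in females, while EbpIII no longer differed by a call. EbpII stood at -3.12, -2.39, -1.85 and -1.44 on the 4 arrays of female against male carcasses. Ebp stood at -2.50, -1.41, -1.93 and -1.64. All 8 values were below 0, whereas EbpIII had 2 arrays above 0 and 2 below, at 0.19, -0.07, 0.17 and -0.47. The fitted ratio of EbpII was -2.20 ± 0.18 (limma's adjusted p = 1.8e-10), the 3rd lowest of 11690 elements tested, and that of Ebp was -1.87 ± 0.19 (limma's adjusted p = 1.6e-08), the 10th lowest. EbpIII was at -0.05 ± 0.12 (limma's adjusted p = 0.82), so outside the gonads this member did not show the male excess of the other two. So 2 of 3 members were called lower in female carcasses, against 8.64% of elements. Other male genes moved the same way: 13 of 14 accessory gland genes were called lower in female carcass (median -1.19), and so were 9 of 10 spermatogenesis genes (median -1.10). Their part in the result was not tested.

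The sex differences of carcasses and whole flies were also set against each other, member by member. No test compared the members. Carcass minus whole fly, the difference of the female over male log2 ratios was 1.16 ± 0.17 for EbpIII (limma's adjusted p = 4.3e-06) and 0.86 ± 0.25 for EbpII (limma's adjusted p = 0.0079). Both were called above 0, meaning a smaller female deficit in carcasses, as were 19.8% of elements. For Ebp the difference was 0.32 ± 0.27 (limma's adjusted p = 0.35). The EbpII call was lost without array 4b, at 0.66 with limma's adjusted p = 0.051, and in a fit on the arrays of these comparisons alone, with adjusted p = 0.16 at the same value. When every array was scaled to 1 spread, the EbpII difference turned to -0.75 and that of Ebp to -0.91.

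Between the gonads all 3 members were lower in ovary than in testis. EbpII stood at -2.89, -2.39, -2.55 and -2.32, Ebp at -2.05, -1.72, -2.30 and -1.98, and EbpIII at -2.11, -1.92, -2.32 and -2.14. Every array was below 0, and the values of Ebp and EbpIII overlapped. The fitted ratios were -2.54 ± 0.18 for EbpII, -2.01 ± 0.19 for Ebp and -2.12 ± 0.12 for EbpIII, with limma's adjusted p between 8.9e-17 and 1.1e-10. All 3 were called lower in ovary, as were 31.9% of elements. All 14 accessory gland genes tested were likewise called lower in ovary, with a median of -2.54, and their part in the result was not tested. The gonad minus carcass difference of the sex ratios was called for EbpIII, at -2.08 ± 0.17 (limma's adjusted p = 6.9e-12, with 27.5% of elements called below 0). It was -0.34 ± 0.25 for EbpII (limma's adjusted p = 0.25) and -0.14 ± 0.27 for Ebp (limma's adjusted p = 0.68). EbpII was called at -0.60 without array 3a, and with all arrays at 1 spread both turned and were called, at 1.42 for EbpII and 1.27 for Ebp, while EbpIII stayed called at -1.06.

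**Figure D1:**
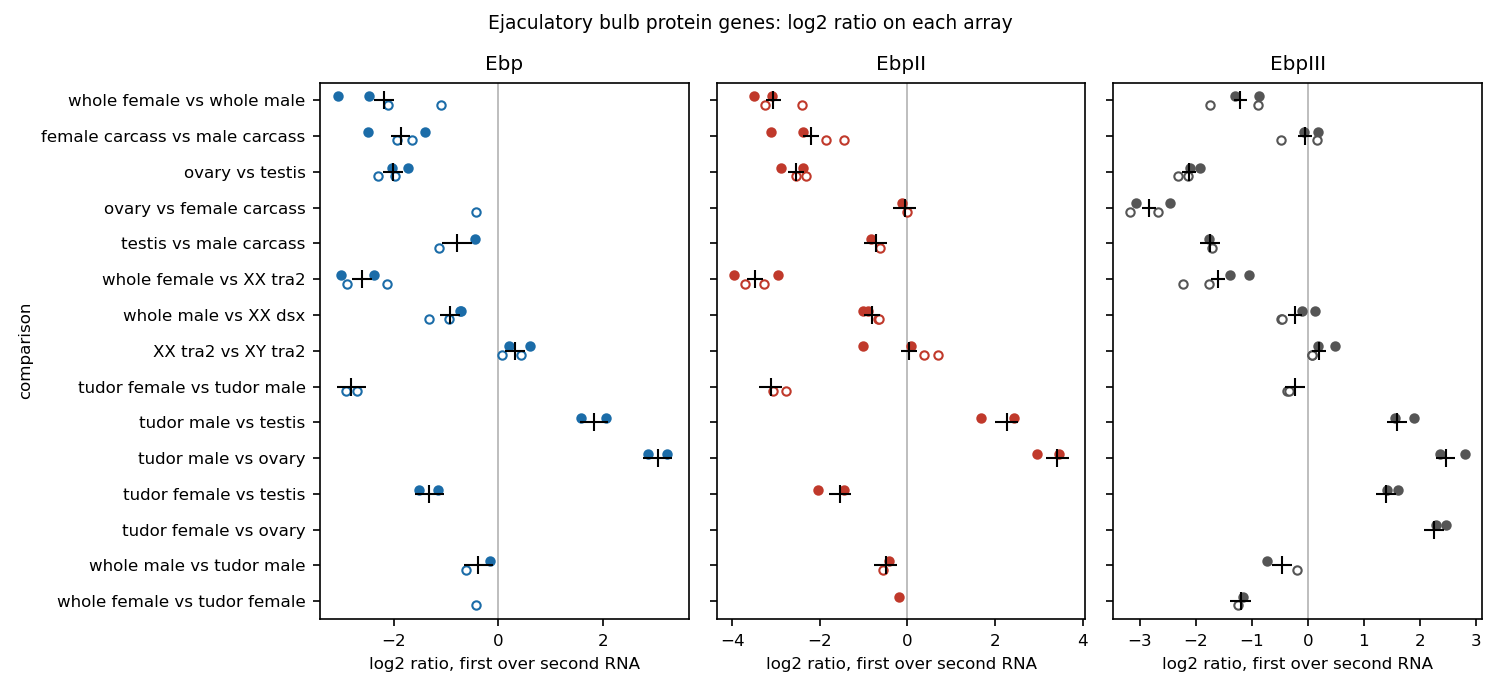
Log2 ratio of Ebp, EbpII and EbpIII on each array (first-named over second-named RNA, horizontal axis) in the 15 comparisons (vertical axis). Filled points are arrays with the first-named RNA in channel 1, open points arrays with it in channel 2, and black marks the fitted ratio ± SE where at least 2 arrays measured the gene. Ebp and EbpII lie far below 0 in every female over male comparison, including the carcasses and tudor flies, whereas EbpIII lies near 0 in those last 2.

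Set directly against male carcass, the testis held less of all 3 members, on 2 arrays. EbpII stood at -0.83 and -0.62, Ebp at -0.44 and -1.14, and EbpIII at -1.77 and -1.71. All 6 values were below 0, with EbpIII lowest. The fitted ratios were -0.72 ± 0.26 for EbpII (limma's adjusted p = 0.022), -0.79 ± 0.28 for Ebp (limma's adjusted p = 0.018) and -1.74 ± 0.18 for EbpIII (limma's adjusted p = 9.8e-10). All 3 were called below 0, as were 26.9% of elements. The EbpII call rested on both arrays: it was lost without array 9, at -0.83 with limma's adjusted p = 0.10, and without array 10, at -0.62 with limma's adjusted p = 0.21. The Ebp call was lost without array 10, at -0.41 with limma's adjusted p = 0.45, and both calls were lost with all arrays at 1 spread, at -0.55 for Ebp and -0.48 for EbpII.

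The accessory gland genes took the opposite direction. Of the 14 accessory gland genes named on the array, 13 were tested here and 13 were called higher in testis than in male carcass (median 1.13, range 0.60 to 1.65), beside a median of 0.00 over all elements and 26% of elements called above 0. SP, the sex peptide that alters female receptivity, was at 1.19, and Acp36DE, a plug protein needed for sperm storage, at 1.12. The odorant-binding protein gene Obp56g, listed here with the bulb and plug genes, was at -1.40 ± 0.15, on the side of Ebp and EbpII. Gld, glucose dehydrogenase of the ejaculatory duct, was at 0.52 ± 0.24 (limma's adjusted p = 0.074). The 10 spermatogenesis genes tested were all called above 0 (median 2.67) and the 5 muscle genes all below 0 (median -2.73). The part of these tissues in the values of the members was not tested.

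Tudor males, whole bodies without germline, held more of all 3 members than testis did. EbpII stood at 2.43 and 1.69, Ebp at 2.07 and 1.59, and EbpIII at 1.89 and 1.55. No array was near 0, and the values of the 3 members overlapped. Both arrays had 1 dye orientation, so the fit takes out a mean dye difference that they cannot balance. This took EbpII from a mean of 2.06 on the arrays to 2.26. The fitted ratios were 2.26 ± 0.26 for EbpII (limma's adjusted p = 4.5e-08), 1.84 ± 0.28 for Ebp (limma's adjusted p = 4.7e-06) and 1.60 ± 0.18 for EbpIII (limma's adjusted p = 1.1e-08). They were the 28th, 64th and 115th highest of 13415 elements, and 15.5% of elements were called above 0. Of the 14 accessory gland genes 0 were called higher in tudor male and 2 were called lower (median -0.29, with 16.6% of elements called below 0), with SP at -0.51 and Acp36DE at -0.08. Obp56g was at 1.98 ± 0.15 and Gld at -0.22 ± 0.24. Muscle genes were called higher in tudor males as well, 5 of 5 with a median of 1.71, and 9 of 11 spermatogenesis genes lower, with a median of -2.59. Their part in the result was not tested.

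**Figure D2:**
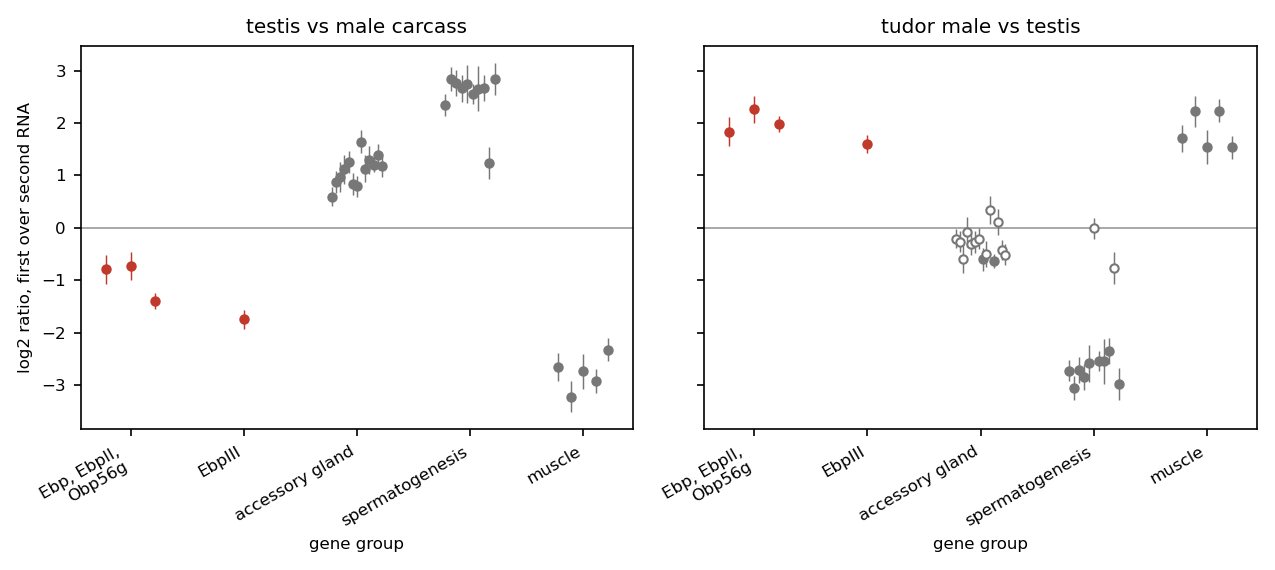
Fitted log2 ratio ± SE (vertical axis) of testis over male carcass (left) and of tudor male over testis (right) for each tested gene of 5 groups (horizontal axis). Filled points were called at an adjusted p under 0.05, open points were not, and red marks Ebp, EbpII, Obp56g and EbpIII. Gld, the other duct and bulb gene tested, is not drawn. It was at 0.52 in testis over male carcass and at -0.22 in tudor male over testis. The red points lie below 0 on the left and above 0 on the right, while the accessory gland genes lie above 0 on the left and between -0.64 and 0.34 on the right.

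In flies without germline Ebp and EbpII were again lower in females, and EbpIII was not called. EbpII stood at -2.77 and -3.08 and Ebp at -2.92 and -2.70 on the 2 arrays of tudor females against tudor males, while EbpIII stood at -0.37 and -0.34. These values did not overlap between EbpIII and the other two. The fitted ratios, which take out a mean dye difference that these 2 arrays of 1 orientation cannot balance, were -3.12 ± 0.26 for EbpII (8.72-fold, limma's adjusted p = 5.0e-10), -2.82 ± 0.28 for Ebp (7.05-fold, limma's adjusted p = 2.4e-08) and -0.23 ± 0.18 for EbpIII (limma's adjusted p = 1.0). So 2 of 3 members were called lower in tudor females, in a comparison in which 139 of 11495 elements were called and 0.887% were called below 0. EbpII was the 3rd lowest element and Ebp the 8th. Accessory gland genes were called lower in tudor females too, 14 of 14 with a median of -2.11, and 0 of 9 spermatogenesis genes were called (median -0.64). With all arrays at 1 spread the ratios were -8.37 for EbpII and -7.82 for Ebp, and EbpIII was called at -0.87.

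Against the whole fly, the sex ratio of the tudor flies differed by -0.06 ± 0.31 for EbpII (limma's adjusted p = 0.91) and by -0.63 ± 0.33 for Ebp (limma's adjusted p = 0.17). Ebp was called at -0.91 without array 1a and lay at -0.18 without array 2b, and with all arrays at 1 spread both were called, at -6.28 for EbpII and -6.34 for Ebp. For EbpIII the difference was called, at 0.97 ± 0.22 (limma's adjusted p = 0.00090, with 14% of elements called above 0), while its tudor minus carcass difference was -0.18 ± 0.22 (limma's adjusted p = 0.73). The EbpIII call against the whole fly was lost on the arrays of these comparisons alone, at 0.85 with limma's adjusted p = 0.10, and with all arrays at 1 spread, at -0.022. The tudor minus carcass difference was -0.92 ± 0.31 for EbpII (limma's adjusted p = 0.28) and -0.94 ± 0.33 for Ebp (limma's adjusted p = 0.31), in a contrast that called 0.256% of elements in either direction. With all arrays at 1 spread these were called, at -5.53 and -5.43, and so was EbpIII at -0.75.

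Against y[1]w[67c] flies of the same sex, tudor females differed in EbpIII, and no member was called in tudor males with all arrays as deposited. In whole males against tudor males EbpII stood at -0.56 and -0.43, Ebp at -0.62 and -0.15, and EbpIII at -0.18 and -0.73. All 6 values were below 0, and the fitted ratios of -0.49 ± 0.26, -0.39 ± 0.28 and -0.46 ± 0.18 had limma's adjusted p of 0.39, 0.62 and 0.15. So 0 of 3 members were called, beside 7.35% of elements in either direction. EbpIII was called at -0.88 without array 22 and lay at -0.038 without array 23, and with all arrays at 1 spread EbpII and EbpIII were called, at -0.87 and -0.70. EbpIII was lower in whole females than in tudor females, at -1.24 and -1.16 on the 2 arrays with a fitted ratio of -1.20 ± 0.18 (limma's adjusted p = 8.6e-06). It was called below 0, as were 14.9% of elements. Muscle genes were called below 0 here as well, 5 of 5 with a median of -1.525, and photoreceptor genes, 3 of 3 with a median of -0.99. Their part in the result was not tested. Ebp and EbpII were measured on 1 array each there, at -0.43 and -0.20, and were not tested.

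The remaining tudor comparisons set germline-less bodies against gonads of y[1]w[67c] flies. Each had arrays of 1 dye orientation only, so its fitted ratios also take out a mean dye difference that its arrays cannot balance. Tudor males exceeded ovary in EbpII, at 3.47 and 2.96, in Ebp, at 3.23 and 2.87, and in EbpIII, at 2.81 and 2.36. The fitted ratios of 3.42 ± 0.26, 3.05 ± 0.28 and 2.46 ± 0.18 were the 6th, 13th and 53rd highest of 12197 elements, and limma's adjusted p lay between 1.7e-12 and 1.0e-09. All 3 were called above 0, as were 16.1% of elements. Tudor females against testis split the members: EbpII stood at -1.46 and -2.04 and Ebp at -1.15 and -1.51, but EbpIII at 1.62 and 1.43. The fitted ratios were -1.54 ± 0.26 for EbpII (limma's adjusted p = 1.6e-05), -1.32 ± 0.28 for Ebp (limma's adjusted p = 0.00029) and 1.40 ± 0.18 for EbpIII (limma's adjusted p = 9.6e-08). Thus 2 members were called below 0, as were 19.4% of elements, and 1 above 0, as were 17.8%. Muscle genes were called above 0 too, 5 of 5 with a median of 1.70, and photoreceptor genes, 3 of 3 with a median of 1.52. Their part in the result was not tested.

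Where both RNAs were female, Ebp and EbpII often had no value at all. In tudor female against ovary 0 of 2 arrays measured either gene, although 76.1% of elements were measured on both arrays. In ovary against female carcass Ebp was measured on 1 of 4 arrays, at -0.43, and EbpII on 2, at -0.12 and -0.01. The fitted ratio of EbpII was -0.06 ± 0.26 (limma's adjusted p = 0.86). In every comparison with a male, testis, tra2 mutant or dsx mutant RNA in at least 1 channel, all arrays measured both genes. EbpIII was measured on all arrays and gave large differences here: ovary against female carcass stood at -2.46, -3.06, -2.67 and -3.17, with a fitted ratio of -2.84 ± 0.12 (7.17-fold, limma's adjusted p = 6.1e-19), the 58th lowest of 13111 elements. It was called below 0, as were 26.7% of elements. Tudor female against ovary gave 2.48 and 2.29, fitted at 2.26 ± 0.18 (limma's adjusted p = 1.5e-11) and called above 0, as were 12.7% of elements. The filter behind missing values is not given in the sources used here. Whether Ebp and EbpII lie near the lower limit of measurement in female RNAs was not tested. If they do, the sizes of their female over male ratios and the order of the female levels given below are uncertain.

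The XX flies mutant for tra2 held all 3 members at more than the female level. In whole females against XX tra2, EbpII stood at -3.97, -2.97, -3.71 and -3.28, Ebp at -3.02, -2.39, -2.90 and -2.13, and EbpIII at -1.06, -1.38, -2.23 and -1.76. All 12 values were below 0. The fitted ratio of EbpII was -3.48 ± 0.18 (11.2-fold, limma's adjusted p = 5.2e-16), the 6th lowest of 12014 elements. Ebp was at -2.61 ± 0.19 (6.10-fold, limma's adjusted p = 2.0e-12), the 33rd lowest, and EbpIII at -1.61 ± 0.12 (3.05-fold, limma's adjusted p = 6.2e-13). All 3 were called below 0, as were 28.4% of elements. The 14 accessory gland genes were all lower in whole females as well, with a median of -2.33, and so were the 5 muscle genes, with a median of -2.15, whose part in the result was not tested.

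With tra2 mutant in both channels, the number of X chromosomes and the presence of the Y chromosome made no called difference. XX tra2 against XY tra2 stood at 0.60, 0.20, 0.08 and 0.43 for Ebp, and at 0.19, 0.48, 0.07 and 0.08 for EbpIII. EbpII was the most spread of the 3, at 0.08, -1.02, 0.70 and 0.37, with an SD of 0.74. The SE given next pools the spread over all comparisons and does not reflect these 4 arrays alone. The fitted ratios of 0.33 ± 0.19, 0.21 ± 0.12 and 0.03 ± 0.18 had limma's adjusted p of 0.26, 0.27 and 0.94. Thus 0 of 3 members were called, beside 20.5% of elements in either direction. A ratio that misses the threshold does not show equal levels. Spermatogenesis genes were called lower in XX tra2, 9 of 10 with a median of -2.52 and 15.3% of elements called below 0.

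XX flies mutant for dsx exceeded whole males in Ebp and EbpII. Whole male against XX dsx stood at -0.70, -0.73, -1.33 and -0.93 for Ebp and at -1.02, -0.91, -0.68 and -0.64 for EbpII. All 8 values were below 0, whereas EbpIII had 1 array above 0 and 3 below, at 0.13, -0.10, -0.48 and -0.47. The fitted ratios were -0.92 ± 0.19 for Ebp (1.90-fold, limma's adjusted p = 0.00031), -0.81 ± 0.18 for EbpII (1.76-fold, limma's adjusted p = 0.00064) and -0.23 ± 0.12 for EbpIII (limma's adjusted p = 0.18). So 2 of 3 were called below 0, beside 11.6% of elements, and EbpIII passed narrowly, with limma's adjusted p = 0.0496, when its second spot alone was used. Gld was at -1.01 ± 0.16 and Obp56g at -0.62 ± 0.10, both called lower in whole males. Among accessory gland genes 3 of 14 were called lower in whole males (median -0.22), Acp76A among them at -1.22. Over the same arrays 9 of 10 spermatogenesis genes were higher in whole males (median 2.18, with 15.1% of elements called above 0) and 5 of 5 muscle genes lower (median -1.38). The part of these shifts in the result was not tested.

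Because the 15 comparisons connect all 11 RNAs, 1 relative level per RNA was also fitted, with whole male at 0. EbpII stood higher in 7 RNAs, those of males, of testis and of the tra2 and dsx mutants, than in the 4 female RNAs, with testis the lowest of the 7. In order the levels were XX dsx 0.81 ± 0.21, XX tra2 0.46 ± 0.28, XY tra2 0.43 ± 0.35, tudor male 0.40 ± 0.26, whole male 0, male carcass -0.87 ± 0.40 and testis -1.34 ± 0.33. Then came tudor female at -2.84 ± 0.30, whole female at -3.02 ± 0.19, female carcass at -3.19 ± 0.40 and ovary at -3.51 ± 0.34. Of the 10 steps between neighbours, 1 passed the test, the step of 1.51 ± 0.23 from testis to tudor female (limma's adjusted p = 8.2e-07), where 50.5% of elements were called in either direction. Relative to whole male, XX dsx was called higher (limma's adjusted p = 0.0028, beside 25.2% of elements called in either direction) and testis lower (limma's adjusted p = 0.0049, beside 13.4%). All 4 female RNAs were called lower, where between 12.8% and 53.6% of elements were called, with 19.2% for female carcass and 42.1% for ovary.

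Ebp gave nearly the same order. XX dsx was highest at 0.92 ± 0.19, followed by tudor male at 0.56 ± 0.25, XX tra2 at 0.34 ± 0.27, XY tra2 at 0.02 ± 0.33, whole male at 0, male carcass at -0.23 ± 0.38 and testis at -0.92 ± 0.30. Female carcass at -2.14 ± 0.39, tudor female at -2.18 ± 0.28, whole female at -2.27 ± 0.18 and ovary at -2.76 ± 0.31 made up the lower group. The steps on both sides of testis passed: 0.70 ± 0.25 below male carcass (limma's adjusted p = 0.017, 54.8% of elements called) and 1.22 ± 0.27 above female carcass (limma's adjusted p = 0.00029, 53.3% called). The testis level of Ebp against whole male was called (limma's adjusted p = 0.035), but lost its call on leaving out any 1 of the arrays 1a, 1b, 18a, 18b, 20a, 22 and 23, with values between -1.15 and -0.69 over all arrays left out in turn.

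EbpIII ordered the RNAs in another way, with both carcasses at the top and ovary, whole female and testis at the bottom. Male carcass was highest at 0.62 ± 0.29 and female carcass next at 0.46 ± 0.28, followed by XX tra2 at 0.44 ± 0.23, tudor male at 0.38 ± 0.20, XY tra2 at 0.24 ± 0.28, XX dsx at 0.23 ± 0.17, tudor female at 0.12 ± 0.21 and whole male at 0. Below them lay testis at -0.87 ± 0.24, whole female at -1.16 ± 0.16 and ovary at -2.50 ± 0.24. The steps from whole male to testis (0.87 ± 0.24, limma's adjusted p = 0.012) and from whole female to ovary (1.33 ± 0.24, limma's adjusted p = 0.00049) passed the test, where 13.4% and 2.02% of elements were called. The first was lost without array 22, with a testis level between -1.07 and -0.72 over all arrays left out in turn. Whole female minus female carcass was -1.62 ± 0.28 (limma's adjusted p = 2.2e-05, 30.7% of elements called).

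**Figure D3:**
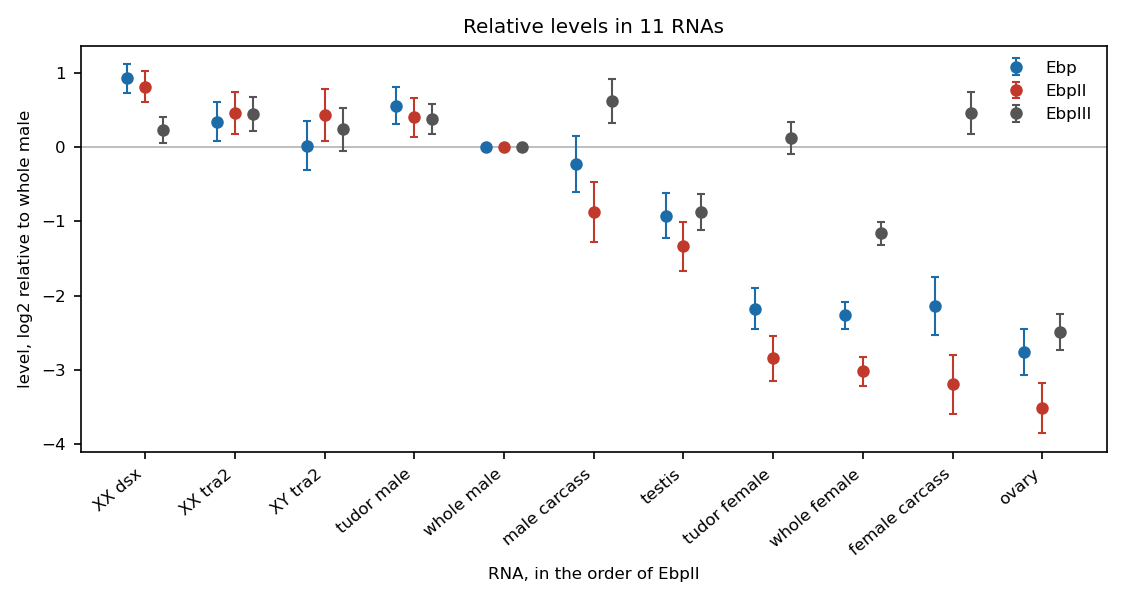
Relative level of Ebp, EbpII and EbpIII (log2, whole male at 0, vertical axis) in the 11 RNAs, in the order of EbpII (horizontal axis). Points are fitted levels and bars their SE. Ebp and EbpII drop after testis to a lower group of 4 female RNAs, whereas EbpIII is at 0.12 in tudor female, at 0.46 in female carcass and lowest in ovary.

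The levels of 1 fit assume that ratios around a closed loop add to 0, and for the members they did so only roughly. Around tudor male, testis and ovary the sum was -1.38 ± 0.40 for EbpII (limma's adjusted p = 0.055), -1.26 ± 0.27 for EbpIII (limma's adjusted p = 0.018) and -0.79 ± 0.42 for Ebp (limma's adjusted p = 0.31), where the median absolute sum over all elements was 0.207 and 1.7% of elements were called below 0. Around tudor female, testis and ovary EbpIII summed to -1.26 ± 0.27 (limma's adjusted p = 0.017, 3.5% of elements called below 0). Around the gonads and carcasses it was -0.997 ± 0.45 for EbpII and -0.97 ± 0.28 for EbpIII, both with limma's adjusted p = 1.0, beside a median absolute sum of 0.153. Around tudor female, tudor male and testis it was -0.68 for EbpII and -0.34 for Ebp, with limma's adjusted p = 1.0 for both. Differences of levels read from RNAs that were not hybridised together carry this misfit. The levels also moved for a pair that was hybridised together. Tudor male exceeded testis in EbpII by 1.74 ± 0.21 in the fit of levels and by 2.26 ± 0.26 in the fit of comparisons. The arrays of this pair stood at 2.43 and 1.69.

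Across the arrays Ebp and EbpII varied together. The Pearson correlation of their ratios, all turned to 1 direction per comparison, was 0.965 over 37 arrays, against 0.658 for Ebp with EbpIII over 38 arrays and 0.593 for EbpII with EbpIII over 39. These points share arrays, dyes and comparisons and give a description only. Ebp lies on another subarray slide than EbpII. On the 2 arrays of mixed sexes against mixed sexes all 3 were near 0, with Ebp at -0.04 and 0.18, EbpII at -0.12 and 0.02, and EbpIII at 0.11 and 0.10. A mean dye difference was called for EbpII, at -0.20 (limma's adjusted p = 0.016), and for EbpIII, at 0.12 (limma's adjusted p = 0.022). In the 2 tudor sex arrays of 1 orientation the dye term took EbpIII from -0.37 and -0.34 on the arrays to -0.23 in the fit.

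The profile of EbpII was then set against those of 6202 other genes that were tested in the same 13 comparisons. Ebp was not among them, because only 1 array measured it in ovary against female carcass, so its likeness was not ranked. Of the genes ranked, Obp56g was the nearest by both measures over these 13, with a Pearson correlation of 0.979 and a root mean square difference of 0.42. The next by correlation were Cyp6g2, a cytochrome P450 gene, at 0.892, CG17242 at 0.883, the accessory gland gene Acp53C14a at 0.869, CG13965, Spn28F, Acp53C14b, CG16820, Mst57Dc and Acp26Ab. Correlation ignores size: Cyp6g2 ranked 104th by root mean square difference, at 1.82. In whole females against whole males it stood at -0.70, where EbpII was at -3.06. By root mean square difference Obp56g was followed by CG17242 at 0.985, Acp53C14a at 0.996 and Mst57Dc at 1.03, with SP, CG17472, Spn77Bb and Acp32CD also among the first 10. Over the 9 comparisons with both dye orientations CG17242 came first, at 0.948, and Obp56g second, at 0.941. EbpIII ranked 366th by correlation over the 13 comparisons, at 0.589, with 0.423 by Spearman's correlation and 0.155 over the 9 comparisons. CG17242 and Acp53C14a parted from EbpII in testis against male carcass, where they stood at 0.53 and 1.26 and EbpII at -0.72, while Obp56g stood at -1.40.

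**Figure D4:**
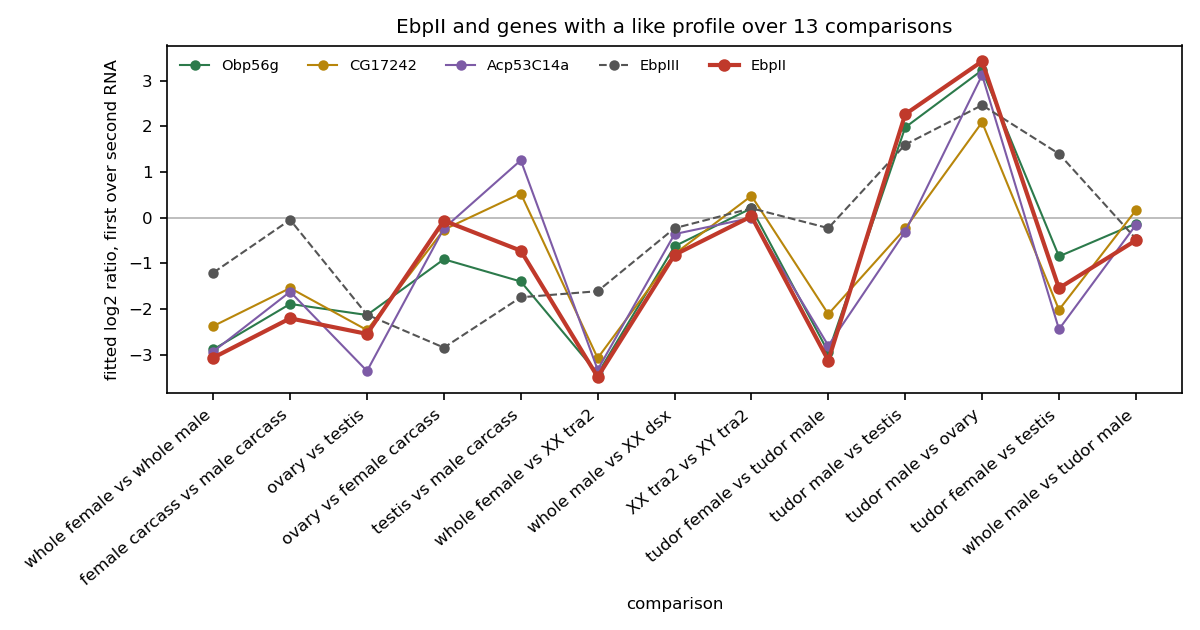
Fitted log2 ratio (first-named over second-named RNA, vertical axis) of EbpII, Obp56g, CG17242, Acp53C14a and EbpIII over the 13 comparisons in which EbpII was tested (horizontal axis). Obp56g follows EbpII in testis over male carcass and tudor male over testis, where CG17242 and Acp53C14a lie apart from it, and EbpIII (dashed) parts from EbpII in the carcass and tudor comparisons of the sexes.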

How the data were processed

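The authors deposited log ratios of 2 channels for 46 arrays, taken here as log2 values. How background, normalization and missing values were handled, and the log base, is not given in the sources used here. Per the labels, 200 ng of mRNA per channel was labelled with Cy3 or Cy5. Duplicate spots were averaged into 15732 elements, arrays were centred on their median, and dye-swapped arrays were turned by their titles. With limma 3.58.1 in R 4.3.3, 1 coefficient per comparison and 1 dye coefficient were fitted per element, with the hybridisation number as a random block (correlation -0.0877). Elements measured on at least 2 arrays of a comparison were tested, with Benjamini-Hochberg adjustment over all of them at 0.05. Levels came from a second fit with 1 level per RNA. The code was tested on simulated data.

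Arrays numbered alike share a dye orientation, and the labels do not say whether their RNA came from separate extracts, so the p-values measure the spread between arrays, which may be technical. For each element this spread was pooled over all comparisons and moderated by limma. An SE or p-value therefore need not match the spread of the arrays of its own comparison. Members were taken by gene symbol, without use of a measured value. They, the gene lists and the likeness rule were chosen with earlier results of these data known. The lists were accessory gland, ejaculatory duct, duct and bulb, mating plug, spermatogenesis, muscle, photoreceptor, oogenesis, and yolk and female fat body. Counts for oogenesis and for yolk and female fat body are not given here. The list genes named are all duct, bulb and plug genes measured, with a few others per list. Likeness was to use all 15 comparisons, but EbpII was tested in 13. The 10 genes nearest by each measure are named. Of 8 duct and bulb genes, 5 were named on the array. Gene names came from the platform table. No sequence is shown. Alternatives covered centring, array spread, dye, block, duplicate spots, arrays 7b and 8b and each array left out.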

Additional observations from a re-analysis of the deposited data

Results flagged for a closer look

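The difference between the sexes was itself different in another tissue in 4 tests, each the change in a female over male log2 ratio. For EbpIII the ratio was higher by 1.16 in carcasses than in whole flies and by 0.97 in tudor flies than in whole flies, and the gonad minus carcass difference was -2.08. For EbpII the carcass minus whole fly difference was 0.86. No array stood apart from the other 3 in any of the 19 sets of 4 arrays of these genes.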

How the results depend on the processing

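Scaling all arrays to 1 spread moved the members most. By construction it enlarges the tudor sex arrays, whose median absolute deviation of 0.085 was among the smallest. Under it Ebp in testis against male carcass was -0.55 and EbpII -0.48, both no longer called. The sex differences became, for carcass minus whole fly, -0.91 (Ebp) and -0.75 (EbpII), both reversed, for tudor minus whole fly -6.34 (Ebp), -6.28 (EbpII) and -0.022 (EbpIII, reversed), for tudor minus carcass -5.43, -5.53 and -0.75, and for gonad minus carcass 1.27 (Ebp) and 1.42 (EbpII), both reversed. EbpIII was called at -0.87 in tudor female against tudor male and at -0.70 in whole male against tudor male, where EbpII was called at -0.87. Levels became 1.75 (Ebp), 1.76 (EbpII) and 0.79 (EbpIII) in tudor male, all called, and Ebp in female carcass (-2.28) and testis (-0.85) and EbpII in testis (-1.37) and XX dsx (1.10) lost their calls. The loop of tudor female, tudor male and testis turned to 4.58 for Ebp and 4.50 for EbpII, the loop of tudor female, testis and ovary to 0.28 for EbpIII, and 1 accessory gland gene in place of 2 was called in tudor male against testis. Elements called in tudor female against tudor male rose from 139 to 3272.

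With only the arrays of the comparisons concerned, EbpIII tudor minus whole fly was 0.85 (limma's adjusted p = 0.10), EbpII carcass minus whole fly 0.86 (0.16), and calls between carcasses fell from 2175 to 174. EbpII in testis against male carcass lost its call with the first spot alone (-0.65) and with 1 level per RNA (-0.46), and EbpIII gained one in whole male against XX dsx with the second spot (-0.31). The cause was not tested. Leaving out each array gave, for testis against male carcass, -1.17 to -0.41 (Ebp) and -0.83 to -0.62 (EbpII), for carcass minus whole fly -0.0073 to 0.71 (Ebp, called without 2b) and 0.66 to 1.12 (EbpII), for tudor minus whole fly -0.91 to -0.18 (Ebp, called without 1a), for EbpII gonad minus carcass -0.60 to -0.14 (called without 3a) and for EbpIII in whole male against tudor male -0.88 to -0.038 (called without 22). Of the 10 genes most like EbpII, 5 remained with Spearman's correlation and 4 without the comparisons of 1 dye orientation. Restricting to the 4342 elements measured on all arrays gave values for EbpIII only. Scaling to 1 spread took away 7 calls of members, loop sums included, without a change of sign, and not all 7 are named here. Apart from these changes and the testis levels named in the report, no alternative run changed a member's call. With arrays 7b and 8b as deposited, elements called in ovary against female carcass fell from 6448 to 3397. No paired analysis was possible because each hybridisation number belongs to 1 comparison.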
